A study of Rattus norvegicus with 8 samples.

Results

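The prohormone processing and granin genes are the genes that build the dense-core vesicles of neuroendocrine cells and cut the hormone precursors packed in them. The set holds 10 genes: Chga, Chgb, Scg2, Scg3, Vgf, Scg5, Pcsk1n, Pcsk1, Pcsk2 and Cpe. A 3′ end site belonged to the set when its gene symbol equalled one of these names, and the rule used no measured value. Of the 98356 sites in the hypothalamic libraries, 55 carried 8 of the 10 symbols, out of 18003 symbols in all. No site carried the symbols Pcsk1 or Pcsk1n, and these genes were not analysed here. The 55 sites took 0.281% of all reads.

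The 8 libraries came from adult male Long-Evans rats that had free access to food until the session. In the cannabis group (4 libraries) rats were exposed to vaporized cannabis plant matter for 10 min. Air-treated controls (4 libraries) were placed in the same kind of chamber with an empty vaporizer. The hypothalamus was dissected 1 h after exposure, with food removed during that hour, and each library was made from the RNA of 1 rat. Following the labels, the libraries are called control 1 to 4 and cannabis 1, 2, 3 and 5. In WTTS-Seq, whole transcriptome termini site sequencing, each read starts at the polyadenylated end of an RNA fragment, so that it marks the alternative polyadenylation (APA) site where a transcript ends.

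Peptide hormones are made as long precursors that travel through the Golgi into dense-core vesicles. Granins are acidic proteins that aggregate there, help the vesicle to form and are themselves precursors of peptides. Prohormone convertases cut the precursors after pairs of basic residues, and carboxypeptidase E then removes these residues from the new ends. In the hypothalamus this machinery serves the vasopressin, oxytocin and releasing hormone neurons as well as the neurons of the appetite circuits.

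Values are normalized counts, which are reads on a site divided by the size factor of the library. The libraries held 1159811 to 3706778 reads on sites, the fewest in control 4 and the most in cannabis 2, and 1 read was worth 0.664 to 1.99 normalized counts. A gene total is the sum over the sites of the gene, and a molecule has 1 end whatever its length, so totals were compared between genes without a correction for length. Hypothalamic marker genes (Avp, Oxt, Hcrt, Pmch, Agrp) were present in every library, with a sum of 2488 to 4863 in controls and 6536 to 8597 after cannabis. Of these, Avp and Oxt had limma P under 0.01. Avp had a log2 fold change of 1.44 (limma P = 0.000924, adjusted P = 0.999, exact permutation P = 0.0286), and Oxt of 1.05 (limma P = 0.00297, adjusted P = 0.999, exact permutation P = 0.0571). Of the pituitary markers, Gh1 and Prl had no site, and the sum of the other 4 (Tshb, Lhb, Fshb, Cga) was 123.5 to 823.6 in controls and 199.8 to 702 after cannabis. The part of these markers in the values of the granin and processing genes was not tested. In bulk tissue, fewer cells of a type and less RNA per cell cannot be told apart.

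The promoters of Scg2 and Vgf are shown because they hold a regulatory motif that the other promoters of the set lack in the same window. The RefSeq promoter table (GRCr8, 250 bases before to 50 after the start of a gene) holds 8 of the 10 genes, without Chga and Pcsk1. The palindrome TGACGTCA, the cAMP response element, was searched in each window and reads the same on both strands. It occurs in 612 of 33469 promoters (1.83%), and among the 8 genes only in Scg2 and Vgf. It lies 123 to 116 bases before the start in Scg2 and 90 to 83 bases before it in Vgf. The 150 bases before each start are printed 5′ to 3′ on the strand of the gene, with the element in capitals.
Scg2, chr9:88256867-88257016, minus strand: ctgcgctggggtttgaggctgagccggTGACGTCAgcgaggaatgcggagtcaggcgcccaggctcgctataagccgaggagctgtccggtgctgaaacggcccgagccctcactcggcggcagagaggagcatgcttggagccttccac
Vgf, chr12:25277021-25277170, minus strand: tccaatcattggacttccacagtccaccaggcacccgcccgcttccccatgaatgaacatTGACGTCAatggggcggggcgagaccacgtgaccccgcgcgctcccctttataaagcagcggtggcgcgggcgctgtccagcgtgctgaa
A match of letters is a description and not a site of binding. The windows of Chgb, Scg3, Scg5, Pcsk1n, Pcsk2 and Cpe do not contain these 8 letters.

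No gene total among the 8 genes passed the test of cannabis against air. In limma 0 of 8 gene totals had P under 0.01, where 0.278% of all genes did. At P under 0.05 it was also 0 of 8, where 2.41% of all genes passed. The adjusted P of each of the 8 totals was 0.999, and 0.00555% of all genes had an adjusted P under 0.1. The edgeR quasi-likelihood test and DESeq2 on the recovered reads likewise gave 0 of 8 at P under 0.01, against 54 and 76 of all 18003 genes. At P under 0.05 edgeR gave 1, Vgf, and DESeq2 gave 0, against 454 and 392 of all genes. The values of the 4 cannabis libraries overlapped those of the 4 controls in all 8 genes, and the groups were apart in 1.98% of all genes. The median log2 fold change over the 8 genes was 0.03, against 0.05 over all genes. Fold changes were above 0 in 5 genes and below 0 in 3 with limma, and above 0 in 3 and below 0 in 5 with edgeR or DESeq2, since those of Chgb and Pcsk2 lie near 0.

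The levels lay in 3 ranges. Cpe (mean of 1623 normalized counts over the 8 libraries), Scg5 (1494) and Chgb (1337) had the most ends, and their ranges over libraries overlapped. Scg3 (625), Vgf (460), Scg2 (369) and Chga (291) came next, with ranges that overlapped among neighbours. The place of Scg3 rests on its site 1, which lies on the other strand than the gene, and without that site its mean was 319, between Scg2 and Chga. The highest library of these 4 genes (929, Vgf) lay below the lowest Chgb library (959.9) but above the lowest libraries of Scg5 (900.4) and Cpe (653). Pcsk2 (91.2) was the lowest, and its highest library (127) lay below the lowest of Chga (138). These orders describe the libraries and were not tested.

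**Figure D1:**
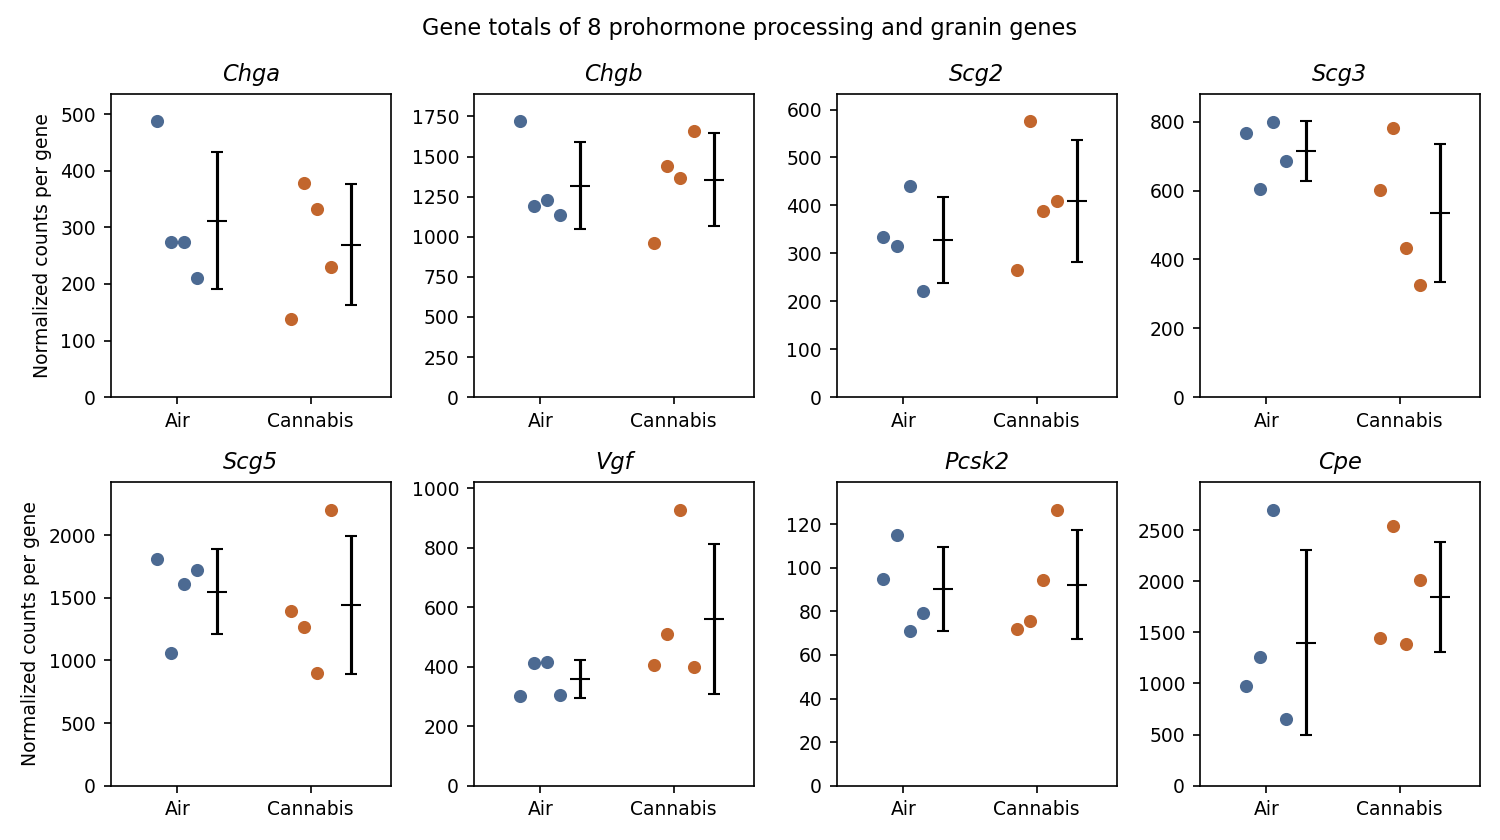
Gene totals in normalized counts (y axis, from 0) of the 8 genes in each library, with air-treated controls in blue and cannabis-exposed rats in orange, 4 libraries each. Bars are the mean ± SD; the groups overlap in every panel, the widest spread among controls is that of Cpe (653 to 2702), and the highest Vgf library is cannabis 3 (929).

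Vgf encodes a precursor of several neuropeptides and was first found as a gene induced by nerve growth factor. The controls had 300.5, 413, 417 and 304 normalized counts. The cannabis-exposed rats had 406, 510.2, 929 and 398. Each cannabis library lay above controls 1 and 4, but 2 of the 4 lay below controls 2 and 3, and cannabis 3 stood far above the rest. The log2 fold change was 0.57 ± 0.27 (SE), with a 95% confidence interval of -0.01 to 1.15 (limma P = 0.0532, exact permutation P = 0.171). The limma P was the lowest of the 8 totals, and the exact test of 4 against 4 libraries cannot go below 0.0286. Without cannabis 3 the log2 fold change was 0.30. Vgf had 2 sites, and its exonic site at 22677594 to 22677633 on the minus strand of chromosome 12 (Rnor_6.0) held 99.6% of the gene in both groups.

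Scg2 encodes secretogranin II, the precursor of secretoneurin. The total was 333, 316, 440.4 and 222 normalized counts in controls and 266, 576, 388 and 410.1 after cannabis. The group means were 328 ± 89.4 and 410 ± 128 (SD, n = 4 each), and the highest library was cannabis 2 and the lowest control 4. This gave a log2 fold change of 0.31, with an interval of -0.26 to 0.88 (limma P = 0.265, exact permutation P = 0.343). It was 0.14 without control 4, 0.13 without cannabis 2 and 0.15 with the depth of the library as a covariate, an alternative chosen after the data were seen. Transcript ends of Scg2 were spread over 3 main sites, of which site 1 is exonic, at 85237502 to 85237552 on the minus strand of chromosome 9. Within each gene, sites are numbered from the highest mean over the 8 libraries. Site 1 had 119.9, 146, 271 and 51.6 normalized counts in controls and 98.1, 355, 184 and 217 after cannabis. It held 41.7% ± 16.2 of Scg2 in controls and 49.7% ± 10.4 after cannabis (SD, n = 4). Site 3 ran the other way between libraries: it was highest in controls 1 and 4 and cannabis 1 (114, 111 and 113) and lowest in cannabis 2 (47.2). Its share was 31.1% ± 15.1 in controls and 20.8% ± 15.1 after cannabis, and that of site 2 was 21.5% ± 0.879 and 24.8% ± 7.61. No share of Scg2 separated the groups, and the lowest exact permutation P among the 3 shares was 0.371.

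Chga encodes chromogranin A, the founding granin and a precursor of regulatory peptides. Its total was 488, 274, 275 and 210.5 normalized counts in controls and 138, 378, 332 and 229.7 after cannabis. Cannabis minus air gave a log2 fold change of -0.24 ± 0.33 (SE), with an interval of -0.94 to 0.46 (limma P = 0.475, exact permutation P = 0.629). Most Chga transcripts ended at site 1, the distal end at 126445529 to 126445676 on the plus strand of chromosome 6, with a mean of 205 ± 68 in controls and 216 ± 83.6 after cannabis (SD, n = 4). The share that ended elsewhere separated libraries rather than groups. It was 55.8% in control 1 and 49.1% in control 4, but 13.1% and 5.13% in controls 2 and 3, and 17.1%, 21.8%, 18.1% and 21.1% after cannabis. The controls thus lay on both sides of the cannabis libraries (30.8% ± 25.4 against 19.5% ± 2.26, exact permutation P = 0.429). Site 2 carried most of this in the controls, with 156, 29.9, 10.7 and 85.4 normalized counts in controls and 9.94, 14.6, 33.5 and 26.9 after cannabis. In cannabis 2 site 3 held more (15.5%) than site 2 (3.87%). The log2 fold change of site 2 was -1.23 (interval -2.50 to 0.05, limma P = 0.0582, exact permutation P = 0.257). Without control 1, the highest control, it was -0.65 and did not pass P under 0.05 in limma, and without control 3, the lowest, it was -1.89 and passed P under 0.01. With depth as a covariate, chosen after the data were seen, it was -1.13.

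Chgb encodes chromogranin B, another major granin of the vesicle core. The total was 1721, 1189, 1231 and 1136 normalized counts in controls and 959.9, 1442, 1364 and 1657 after cannabis. The means were 1319 ± 271 and 1356 ± 292 (SD, n = 4), a log2 fold change of 0.03 with an interval of -0.44 to 0.51 (limma P = 0.885, exact permutation P = 0.914). Site 1, the distal end at 125441522 to 125441980 on the plus strand of chromosome 3, held 87.7% ± 10.2 of the gene in controls and 91.2% ± 5.2 after cannabis. The total of control 1 was the highest of the 8 libraries, although its site 1 (1257) was not. Site 2 had 260.2 normalized counts in control 1 and 36.3 to 62 in the other 7 libraries. Of the 6 lesser sites of Chga and Chgb with a mean of at least 10, 5 were highest in control 1. Over all 8 genes it was 7 of 17 such sites. These counts were not planned, and the share over all sites of the series was not computed.

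Chgb site 4 had the lowest limma P of the 55 sites and was chosen after its values were seen. It is exonic, at 125439798 to 125439931 on the plus strand of chromosome 3, and its centre lies 1.89 kb before that of the distal site. An exonic Chgb site with the same mean reads is among those the study lists as lower after cannabis. The controls had 97.2, 8.38, 2.69 and 9.93 normalized counts, and the cannabis-exposed rats 0, 2.66, 4.92 and 3.07. Control 1 held most of the control reads, and control 3 lay below cannabis 3 and 5. In cannabis 1 the site had no read, and 3 reads there would be worth 3.73 normalized counts. On the log2(value + 1) scale the change was -2.18 (interval -3.80 to -0.56, limma P = 0.0107, adjusted P = 0.9999, exact permutation P = 0.0857). Without control 1 it was -1.24 and did not pass P under 0.05 in limma, and without control 3 it was -2.82 and passed P under 0.01. On the recovered reads both edgeR and DESeq2 put the site under P of 0.01, as they did 517 and 310 of all 98356 sites. With either, 0 of the 55 sites had an adjusted P under 0.1, where 1 and 4 of all sites did. In limma 0.00102% of all sites did. As a part of Chgb the site held 1.86% ± 2.54 in controls and 0.183% ± 0.147 after cannabis (SD, n = 4, exact permutation P = 0.0571).

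Scg3 encodes secretogranin III, which binds chromogranin A and holds it at the vesicle membrane. The total, with site 1 on the other strand counted in, was 768, 605, 799.6 and 687 normalized counts in controls and 601, 782, 433 and 326 after cannabis. The controls lay close together, while cannabis 3 and 5 lay below every other library and cannabis 2 within the controls. The difference of cannabis from air was -0.49 ± 0.26 (SE) on the log2 scale, with an interval of -1.03 to 0.06 (limma P = 0.0787, exact permutation P = 0.171). Without cannabis 5 it was -0.27.

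The most read site of Scg3 varied more between libraries than its sites 2 and 3. Site 1 lies in an intron, at 82620631 to 82620821 of chromosome 8, on the plus strand, whereas the gene is read from the minus strand. It is 38.4 kb from site 2, the distal end of the gene at 82582315 to 82582358. Site 1 had 364, 311, 426 and 411 normalized counts in controls, and 350.2, 413, 144 and 29.2 after cannabis. Cannabis 1 and 2 lay among the controls and cannabis 3 and 5 far below them. The log2 fold change was -1.24 (interval -2.35 to -0.14, limma P = 0.0284, adjusted P = 0.9999, exact permutation P = 0.229). Without cannabis 5 it was -0.45 and did not pass P under 0.05 in limma, whereas without cannabis 1 or 2 it was -1.63 or -1.71 and passed P under 0.01. With edgeR on the recovered reads it was -0.67 and did not pass P under 0.05. As the symbols were assigned, site 1 held 53% ± 5.16 of Scg3 in controls and 38.3% ± 22.3 after cannabis (SD, n = 4, exact permutation P = 0.286). The study describes WTTS-Seq as strand-specific, and by the strand listed, the reads of site 1 are not ends of Scg3 transcripts. Which transcript they come from could not be checked here.

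Since site 1 is on the other strand than the gene, the total was also taken without it, an alternative chosen after the data were seen. Scg3 then had a log2 fold change of -0.16, which did not pass P under 0.05 in limma. Site 2, the distal end, had 169, 153, 235 and 95.3 normalized counts in controls and 109, 248, 157 and 161 after cannabis, a log2 fold change of 0.06 with an interval of -0.65 to 0.77. Site 3 had 208, 113, 118 and 153 in controls and 118, 87, 96.4 and 92.9 after cannabis (log2 fold change -0.55, limma P = 0.104, exact permutation P = 0.0571). Its location was not among the positions used here.

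**Figure D2:**
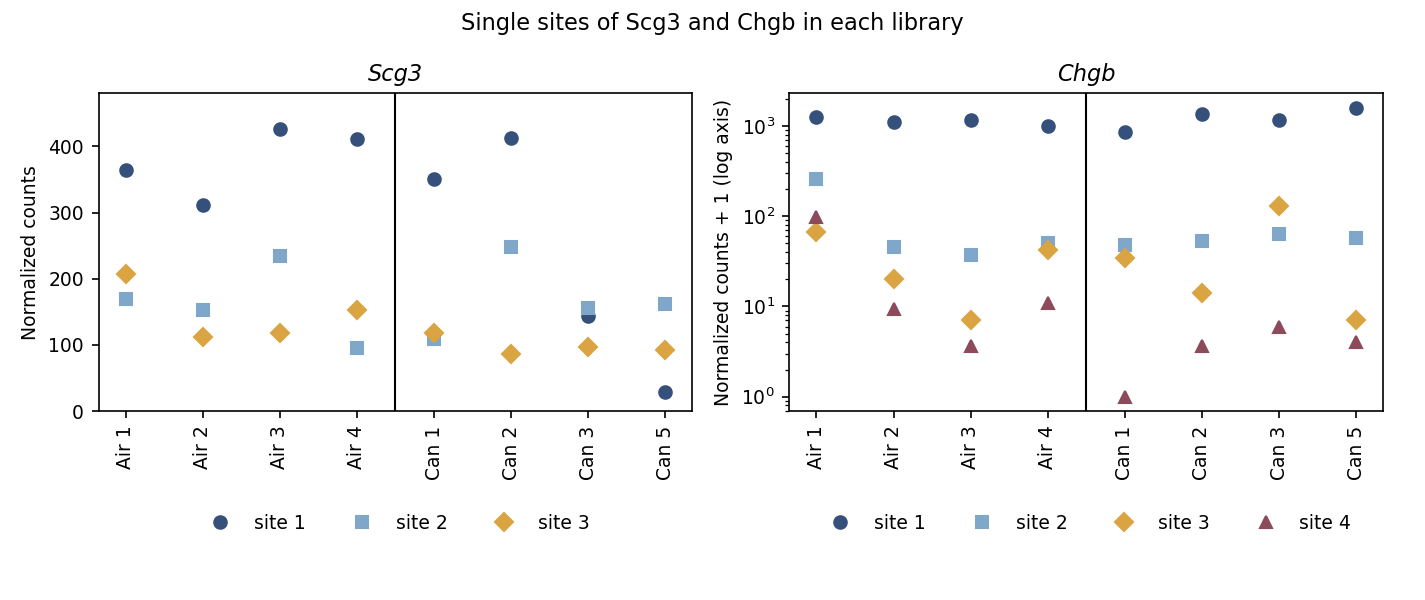
Normalized counts of single sites in each library, the 4 controls left and the 4 cannabis-exposed rats right of the line, for Scg3 (linear axis) and Chgb (value + 1 on a log axis). Scg3 site 1 is lowest in cannabis 3 (144) and cannabis 5 (29.2), where site 3 (96.4 and 92.9) is also below every control and site 2 is not. Site 3 is lowest in cannabis 2 (87), where site 1 (413) is within the range of the controls. Chgb sites 2 and 4 are highest in control 1 (260.2 and 97.2).

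Scg5 encodes 7B2, the chaperone that the precursor of prohormone convertase 2 needs to become active. Its total was 1806, 1057, 1611 and 1720 normalized counts in controls and 1390, 1264, 900.4 and 2203 after cannabis. The highest and the lowest library were both cannabis libraries. Between the groups the log2 fold change was -0.15, with an interval of -0.73 to 0.43 (limma P = 0.587, exact permutation P = 0.743). Nearly all ends fell on a pair of sites 170 bases apart on the minus strand of chromosome 3, the distal site 1 at 105235052 to 105235126 and the exonic site 2 at 105235241 to 105235277. Site 1 had 1622, 838, 1247 and 1609 in controls and 1162, 909, 697 and 1794 after cannabis. Site 2 had 181, 214, 362 and 103 in controls and 225, 349, 201 and 404 after cannabis. The share of the upstream site 2 was 14.7% ± 7.94 in controls and 21.1% ± 5.01 after cannabis (SD, n = 4). This difference was within the spread of the libraries (exact permutation P = 0.257).

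Pcsk2 encodes prohormone convertase 2, which cuts precursors in the maturing vesicle. It was the least read of the 8 genes, with 40 to 165 reads in a library. The total was 95, 115, 71.2 and 79.4 normalized counts in controls and 72, 75.7, 94.5 and 127 after cannabis, and the groups ran over the same range. Their log2 fold change was 0.02, with an interval of -0.53 to 0.57 (limma P = 0.939, exact permutation P = 0.886), and its sign turned with edgeR, DESeq2 or equal library totals. Pcsk2 also had the most sites, 15, of which 12 had a mean under 10. Site 1 held 28.5% ± 8.51 of the gene in controls and 30.8% ± 6 after cannabis, site 2 15.5% ± 4.88 and 10.2% ± 3.57, site 3 12.3% ± 2.3 and 12.3% ± 6.9, and site 4 11.2% ± 12.2 and 4.82% ± 5.29 (SD, n = 4 each). None of these sites separated the groups. Site 6 was the only one of the 55 sites whose groups were apart, where 2% of all sites were. It had 2.92, 0, 2.69 and 3.97 normalized counts in controls and 6.21, 6.64, 5.9 and 4.61 after cannabis, which are 0 to 10 reads in a library (log2 fold change 1.22, interval -0.005 to 2.45, limma P = 0.0508, adjusted P = 0.9999, exact permutation P = 0.0286).

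Cpe encodes carboxypeptidase E, which trims the basic residues left by the convertases. The total was 977, 1262, 2702 and 653 normalized counts in controls and 1442, 2540, 1391 and 2013 after cannabis. Control 3 was the highest of all 8 libraries, and the other 3 controls were the lowest. The groups differed by 0.56 ± 0.36 (SE) on the log2 scale, with an interval of -0.22 to 1.33 (limma P = 0.144, exact permutation P = 0.4). Without control 3 it was 0.94 and passed P under 0.01 in limma, without control 4 it was 0.26, and with edgeR it was 0.34, neither of which passed P under 0.05. With depth as a covariate the log2 fold change was likewise 0.34 and did not pass P under 0.05. Site 1, the distal end at 27014786 to 27015218 on the plus strand of chromosome 16, held 95.5% ± 2.87 of Cpe in controls and 96.8% ± 2.2 after cannabis.

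**Figure D3:**
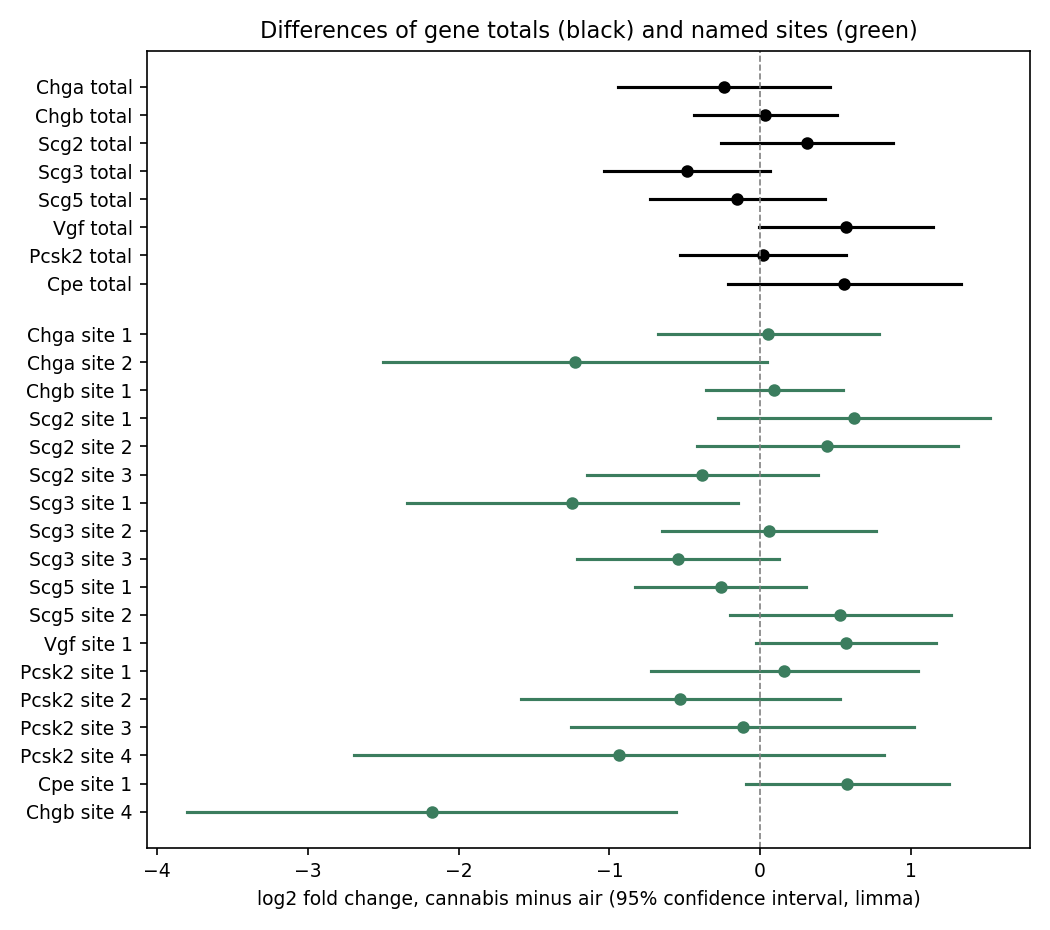
Log2 fold change, cannabis minus air (x axis), with its 95% confidence interval from limma, for the 8 gene totals in black and 18 sites in green. Every interval of a total includes 0, and of the sites those of Scg3 site 1 (-2.35 to -0.14) and Chgb site 4 (-3.80 to -0.56) do not.

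Over the 55 sites, 0 had limma P under 0.01, where 0.381% of all sites did, and 2 had P under 0.05, where 3.03% did. These were Chgb site 4 and Scg3 site 1. With edgeR 1 site had P under 0.01 and 3 had P under 0.05 (Chgb site 4, Chga site 2 and Vgf site 1), and with DESeq2 1 and 2. Of all 98356 sites, 517 and 2859 had these P-values with edgeR, and 310 and 1829 with DESeq2. Of the 55 sites, 25 had a mean of at least 10 normalized counts and 30 were below, between 1.56 and 9.22. The 8 genes kept 95.9% to 99.7% of their reads on sites with a mean of at least 10, except Pcsk2 with 55.6%.

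Site usage, the log2 ratio of a site to the rest of its gene, was compared for the 25 sites with a mean of at least 10. In limma 0 of 25 had P under 0.01, where 0.307% of all 14643 tested sites did, and 1 of 25 had P under 0.05, where 2.54% did. That site was Chgb site 4 (limma P = 0.0255, exact permutation P of its share = 0.0571). The shares of 1 of the 25 sites were apart between the groups, where 1.76% of all tested sites were. This was Scg3 site 4, a minor site with 1.21% ± 0.378 of the gene in controls and 2.58% ± 0.995 after cannabis (SD, n = 4, the smallest possible exact P). Its usage differed by 1.05 on the log2 scale, with an interval of -0.01 to 2.10 (limma P = 0.0515, exact permutation P of the share = 0.0286). Its normalized counts, 6.04 to 9.93 in controls and 8.86 to 14.9 after cannabis, overlapped between the groups. Without Scg3 site 1 in the sum, an alternative chosen after the data were seen, the shares of site 4 overlapped too, with 1.62% to 3.6% in controls and 3.06% to 5.94% after cannabis (exact permutation P = 0.114).

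**Figure D4:**
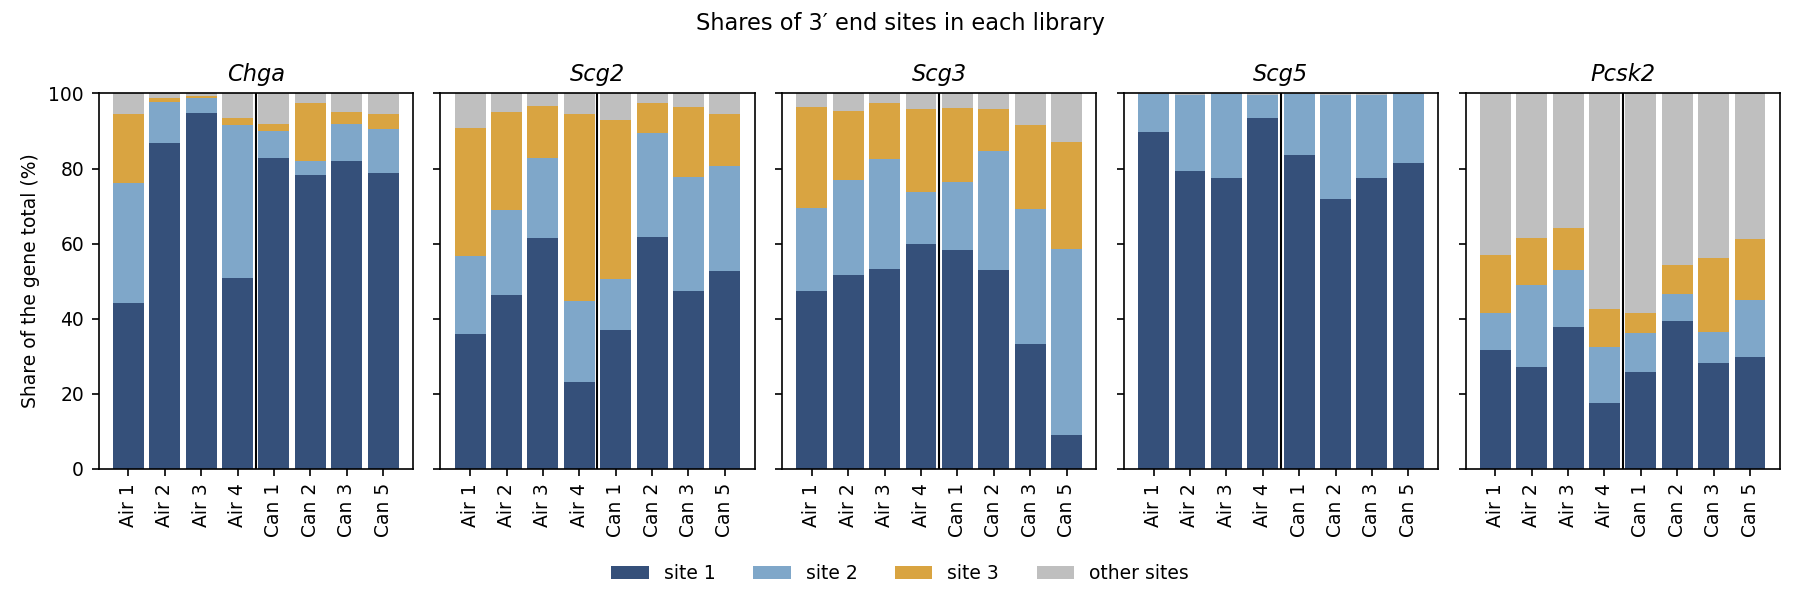
Share of the gene total (y axis, percent) that ended at the 3 most read sites of Chga, Scg2, Scg3 and Pcsk2, the 2 most read of Scg5, and at all other sites, in each library. Controls 1 and 4 stand apart in Chga, where site 1 held 44.2% and 50.9%, and cannabis 5 in Scg3, where site 1 held 8.96%.

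Other genes of the pathway were taken as 2 lists. Of all genes, 0.278% had limma P under 0.01 and 2.41% under 0.05, and 56.4% of log2 fold changes were above 0, with a median of 0.05. Of the other processing enzymes 14 were measured, and 0 had limma P under 0.01 or under 0.05. The log2 fold change was above 0 in 10 and below 0 in 4, with a median of 0.16. Pam, which amidates the ends of peptides such as vasopressin and oxytocin, had 637 ± 124 normalized counts in controls and 693 ± 166 after cannabis (SD, n = 4). Furin, the convertase of the Golgi, had 105 ± 11.9 and 126 ± 35.2. Of 16 genes of dense-core vesicle biogenesis and release 15 were measured (Eipr1 had no site), and again 0 had P under 0.01 or under 0.05, with 9 above and 6 below 0 and a median of 0.07. Ptprn, a phosphatase-like protein of the vesicle membrane, had 1265 ± 207 in controls and 1322 ± 182 after cannabis. Cadps, which primes the vesicles for release, had 124 ± 23.3 and 138 ± 12.9.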

How the data were processed

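RNA of the rat hypothalamus was profiled by WTTS-Seq in 8 libraries. Per the methods of the study, reads were mapped with TMAP 3.4.1 to Rnor_6.0 (Annotation Release 106), read ends within a 24-nt window were clustered, sites with at least 16 reads were kept, and Cuffcompare 2.2.1 assigned gene symbols. The values the authors deposited are a signal per site and library, normalized counts (reads divided by a DESeq2 size factor), in 1 file per library without pooling. Every value (100%) was a whole number of reads to within 0.001 reads, which gave back the reads.

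Files were joined by row order, and gene totals were sums over all sites of a symbol. Gene totals, sites and site usage were fitted across all features with limma 3.58.1 (R 4.3.3, lmFit and eBayes with a trend) on log2(value + 1), without covariates, with Benjamini-Hochberg adjustment over all features. Fold changes on this scale understate those of low sites. Thresholds were P under 0.01 and adjusted P under 0.1. Single values had a two-sided exact permutation test of 4 against 4. P-values measure the spread between these 8 libraries, and counting error adds to it at low reads (a median of 34 reads per site over all libraries). A read without a molecular identifier is not an independent molecule.

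Count tests were run on the recovered reads with edgeR 4.0.16 (quasi-likelihood, TMM) and DESeq2 1.42.0. At P under 0.01 they called 54 and 76 of the 18003 genes, and at an adjusted P under 0.1 they called 2 and 7. Further fits took replicate as a block or dropped 1 library at a time, or used pseudocounts of 0.5 and 5, equal library totals, no trend, filters on the mean and other sums of sites. Chosen after the data were seen were depth as a covariate and totals and shares without sites on the other strand. The strand was known only for the sites with a position, and of these only Scg3 site 1 was on the other strand. The strand of the remaining sites was not checked. The fits were tested on simulated reads. There, 200 gene totals above a minimum mean were changed by 1 on the log2 scale. Of these, 59.5% had limma P under 0.01 and 9.5% an adjusted P under 0.1. Of the unchanged genes 1.03% had limma P under 0.01.

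Named sites hold the most reads of their gene, have P under 0.01, or hold at least 10% of their gene in a group. Of the pathway lists, genes with P under 0.01 and Pam, Furin, Ptprn and Cadps were named. Members and lists were chosen with earlier results of these data known. Positions of 10 of the 55 sites came from the site annotation of the study, matched by symbol and by the values in the 8 libraries. Promoters came from RefSeq (GRCr8), and were not placed on Rnor_6.0. Sums, shares and permutation tests were computed with scipy 1.17.1, pandas 2.3.3 and numpy 2.4.6 in Python 3.11.15, and plots with matplotlib 3.10.9.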

Additional observations from a re-analysis of the deposited data

Results flagged for a closer look

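In groups of 4 libraries, the highest or lowest library was compared with the range of its group by Dixon's test. Of 52 groups tested, 3 had a library far from the others, near the rate of about 1 in 20 that chance gives. The groups are not independent, since sites are part of their gene totals. Chgb site 4 was chosen after its values were seen, and the Chgb total includes it. All 3 flagged libraries were controls, and this was not tested. The Chgb total of control 1 was 1721 normalized counts, against 1136 to 1231 in the other controls. Chgb site 4 had 97.2 normalized counts in control 1, against 2.69 to 9.93 in the other controls. Pcsk2 site 2 had 25.1 normalized counts in control 2, against 9.5 to 11.9 in the other controls.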

How the results depend on the processing

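Depth limits the precision of minor sites, where 1 read is worth up to 1.99 normalized counts, and 4 libraries a group give wide intervals. Each of 34 results was recomputed under the alternatives, 615 values in all. Of these, 553 kept direction and stayed on their side of a P of 0.01, 46 turned in sign, 12 passed P under 0.01 and 4, all of Oxt, no longer did. No gene total of the set passed except Cpe without control 3 (0.94). The cause of these shifts was not tested, except that filters leave fewer features and a block or a left-out library fewer libraries.

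The deviations of same-numbered libraries of the 2 groups had correlations of -0.235 to 0.089 (3 pairs, mean -0.0719). Those of the 13 other pairs were -0.388 to 0.489 (mean 0.0226). No library correlated best with its own number, but 3 pairs are too few to tell whether the numbers share more than a name. With the replicate block the counts at P under 0.01 were 21 gene totals and 198 sites, against 50 and 375 without it, and at an adjusted P under 0.1 they were 2 gene totals, 4 sites and 2 in site usage, against 1, 1 and 0. At P under 0.01, gene totals gave 98 without trend, 29 with a mean of at least 10, 76 with DESeq2 and 21 from sites with a mean of at least 10, sites gave 44 with a mean of at least 10, and usage gave 77 and 24 with a mean of at least 5 and 20 in place of 45. At an adjusted P under 0.1, gene totals gave 2 with equal library totals, 0 without trend, 2 with edgeR and 7 with DESeq2, and sites gave 0 without trend or with a mean of at least 10, 4 with DESeq2 and 2 with depth as a covariate. Of the gene totals with P under 0.01, 18 were higher and 32 lower with limma, 12 and 42 with edgeR, and 12 and 64 with DESeq2. Leaving out each library gave 30 to 90 gene totals, 227 to 617 sites and 29 to 79 in usage at P under 0.01, and 0 to 2, 0 to 5 and 0 to 2 at an adjusted P under 0.1.

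Log2 fold changes that turned in sign were, with the replicate block, Chgb (-0.14), Pcsk2 (-0.20), Ptprn (-0.025), Chga site 1 (-0.18), Chgb site 1 (-0.0905), Scg3 site 2 (-0.17) and Pcsk2 site 1 (-0.24). With edgeR and DESeq2 they were Chgb (-0.017 and -0.024), Pcsk2 (-0.012 and -0.018) and Pcsk2 site 3 (0.16 and 0.12). With depth as a covariate they were Chgb (-0.0501), Ptprn (-0.0046), Chga site 1 (-0.13) and Scg3 site 2 (-0.13). With the most read site in place of the sum they were Chga (0.053) and Cadps (-0.00075). Pcsk2 was -0.00036 with equal library totals and -0.053 from sites with a mean of at least 10. Leaving out 1 library gave ranges across 0 for Chga (-0.44 to 0.048), Chgb (-0.073 to 0.19), Scg5 (-0.38 to 0.0498), Pcsk2 (-0.14 to 0.14), Pam (-0.021 to 0.27), Ptprn (-0.059 to 0.15), Chga site 1 (-0.23 to 0.33), Chgb site 1 (-0.036 to 0.26), Scg3 site 2 (-0.17 to 0.26), Pcsk2 site 1 (-0.094 to 0.34) and Pcsk2 site 3 (-0.45 to 0.29).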

Other observations

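The 14 measured processing enzymes outside the set were summed in each library, a sum chosen after its values were seen. It was 2472 to 2631 normalized counts in controls and 2727 to 2902 after cannabis, so the groups did not overlap. Single gene totals did not overlap in 1.98% of all genes, but this is not the share for sums of 14 genes, which was not computed. Over all genes the median log2 fold change was 0.05, with 56.4% above 0. As CPM of all normalized counts on sites the sum was 1034 to 1132 in controls and 1144 to 1279 after cannabis. No single enzyme had P under 0.05, and most of the sum came from Ece2, a membrane metalloprotease that cuts peptides in acidic compartments, and Pam. Ece2 had 1060, 1055, 1335 and 1426 normalized counts in controls and 1490, 1480, 1152 and 1482 after cannabis, and the groups overlapped (log2 fold change 0.21, limma P = 0.304, exact permutation P = 0.171).

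The marker lists give the other cell types that the tissue holds. No marker of neurons (5 of 5 measured), astrocytes (4 of 4), oligodendrocytes (4 of 4), microglia (4 of 4), pituitary (4 of 6) or choroid plexus (2 of 3, without Kl) had P under 0.01 in limma, and 0 had P under 0.05. Of all genes, 0.278% and 2.41% did. The sum of the neuronal markers was 1430 to 2324 normalized counts in controls and 1234 to 2193 after cannabis, and that of the astrocyte markers 1797 to 1941 and 872.5 to 2354. Oligodendrocyte markers summed to 38180 to 52170 and 31920 to 48280, microglial markers to 477 to 661 and 474 to 611, and choroid plexus markers to 0 to 19.2 and 3.73 to 28.6. Cannabis 5 was the lowest library of the Scg3 total only with site 1 counted in. Without site 1 its Scg3 total was 296.5, within the range of the other libraries (250.9 to 403.5). Cannabis 5 was also the lowest for the astrocyte marker Gfap, with 515 normalized counts against 1388 to 1772 in the other 7 libraries. The other astrocyte markers did not all go this way in cannabis 5. Aldh1l1 (39.2) was lowest there too, but Aqp4 (265) and Slc1a2 (53) lay within the range of the other libraries. The part of these markers in the Scg3 value was not tested.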
